A study of Mus musculus with 4 samples.

Results

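Aminoacyl-tRNA synthetases join each amino acid to its transfer RNA. The 36 listed genes were 20 cytosolic enzymes or subunits and 16 mitochondrial ones, whose symbols carry the suffix 2. Each was looked up among probe sets that carry 1 gene symbol and read from its brightest probe set, the one with the highest mean over the arrays. This found 35 of the 36, out of 18194 genes in all. Mars was filed as Mars1, and Dars, the aspartate enzyme, was not analysed here. The study compared Ets1-deleted C57BL/6 mice with C57BL/6 littermate controls, where Ets1 is the founding member of the ETS transcription factors. Group 2 innate lymphoid cells (ILC2), which make type 2 cytokines without rearranged antigen receptors, were cultured for 2 weeks with IL-33 and IL-7 on OP9-DL1, a stromal line made to present a ligand of Notch. ICOS-positive cells were then sorted for RNA, and each group had 2 Affymetrix arrays. The sources used here do not give how or in which cells Ets1 was deleted, the age of the mice, or whether animals were pooled.

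Cells hold separate sets of these enzymes, 1 for translation in the cytosol and 1 that is made in the cytosol and imported into mitochondria. Gars and Kars are known to encode both forms, Eprs joins the glutamate and proline enzymes in a single protein, and the phenylalanine enzyme is built from Farsa and Farsb. When amino acids run short, uncharged transfer RNA activates the kinase GCN2 (gene Eif2ak4), which phosphorylates the initiation factor eIF2. This favours translation of ATF4, a transcription factor known to raise amino acid transport, amino acid synthesis and many of the cytosolic synthetase genes.

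Start-site sequences are shown for 5 of the cytosolic genes that rose, because these hold the short motif that ATF4 binds with its partners. The windows below come from RefSeq (GRCm38.p6) and run from 150 bases before to 30 bases after a transcript start, on the gene's own strand. Capitals mark each match to TGATGNAA on either strand.
Gars (chr6:55037851-55038030, + strand): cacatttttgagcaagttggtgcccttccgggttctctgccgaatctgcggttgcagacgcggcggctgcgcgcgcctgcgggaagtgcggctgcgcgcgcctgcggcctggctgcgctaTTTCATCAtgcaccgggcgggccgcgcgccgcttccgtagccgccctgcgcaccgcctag
Yars (chr4:129189753-129189932, + strand): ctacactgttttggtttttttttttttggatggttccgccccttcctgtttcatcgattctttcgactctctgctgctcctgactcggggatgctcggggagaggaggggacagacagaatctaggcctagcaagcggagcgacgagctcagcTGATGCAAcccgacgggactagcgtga
Aars (chr8:111033692-111033871, + strand): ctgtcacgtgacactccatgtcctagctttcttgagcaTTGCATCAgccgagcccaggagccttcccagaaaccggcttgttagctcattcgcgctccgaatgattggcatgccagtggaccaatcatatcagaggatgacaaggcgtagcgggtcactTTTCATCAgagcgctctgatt
Tars (chr15:11399629-11399808, - strand): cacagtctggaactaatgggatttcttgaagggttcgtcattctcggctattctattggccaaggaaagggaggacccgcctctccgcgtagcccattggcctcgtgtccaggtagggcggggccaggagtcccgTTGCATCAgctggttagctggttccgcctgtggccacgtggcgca
Iars (chr13:49681980-49682159, + strand): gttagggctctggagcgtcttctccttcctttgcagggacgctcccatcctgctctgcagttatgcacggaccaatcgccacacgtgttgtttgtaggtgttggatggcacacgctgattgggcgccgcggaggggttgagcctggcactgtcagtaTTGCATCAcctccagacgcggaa

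Taking position 1 as the start site, the match began at -30 in Gars, 4 in Yars, -15 in Tars and 8 in Iars. Aars held 2 matches, beginning at -112 and 10. Yars alone carried the motif on the same strand as the gene. Windows of 300 bases (250 before the start and 50 after it) were found for 27 of the 36 genes, and not for Cars, Hars, Lars, Nars, Rars, Vars, Wars, Hars2 and Pars2. The motif stood in 5 of the 8 windows of cytosolic genes that rose, in 0 of the 5 of other cytosolic genes (Dars among them) and in 0 of the 14 of mitochondrial genes. For comparison, 4.51% of all 27025 genes in the table held it, 5.42% of tested genes called higher, 2.09% of those called lower and 2.23% of those that did not pass. It also stood in 9 of 26 windows of a list of other ATF4 target genes. Another motif, CCGGAAG, the core bound by ETS factors, was searched on both strands. It was found in 9 of the 27 synthetase windows, against 9.93% of all genes, 12.5% of called higher, 16.8% of called lower and 23.5% of tested genes that did not pass. By compartment these were 5 of 13 cytosolic and 4 of 14 mitochondrial windows. The E-box CACGTG, which MYC and related factors bind, was in 5 of the 27 (8.09% of all genes). Its shares were 10.8% of called higher, 12.8% of called lower and 12.1% of tested genes that did not pass. By compartment it stood in 4 of 13 cytosolic and 1 of 14 mitochondrial windows. No match of one motif overlapped a match of another in the synthetase windows. A match is a description of these letters and not a binding site.

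Cytosolic synthetase genes were higher in Ets1-deleted ILC2 and mitochondrial ones were not called in either direction. Of the 19 cytosolic genes tested, 12 rose, 0 fell and 7 did not pass an adjusted p of 0.05 in limma, with a median log2 difference of 0.40. Of the 15 mitochondrial genes tested, 0 rose and 0 fell, also at an unadjusted p under 0.05, with a median of -0.03. Over all 10873 tested genes 13.9% were called higher and 12.8% lower, 26.7% in all, with a median of -0.00. The groups did not overlap in 17 of the 19 cytosolic and 7 of the 15 mitochondrial genes, against 62.6% of all tested genes. Differences are Ets1-deleted minus control on the log2 scale, ± SE from limma, with n = 2 arrays per group throughout. The mitochondrial Mars2 was too dim to test. Nothing in the labels says that the samples of a group are separate animals or cultures, so the spread behind each p-value may be technical. In bulk RNA, fewer cells of a type and less RNA per cell cannot be told apart.

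**Figure D1:**
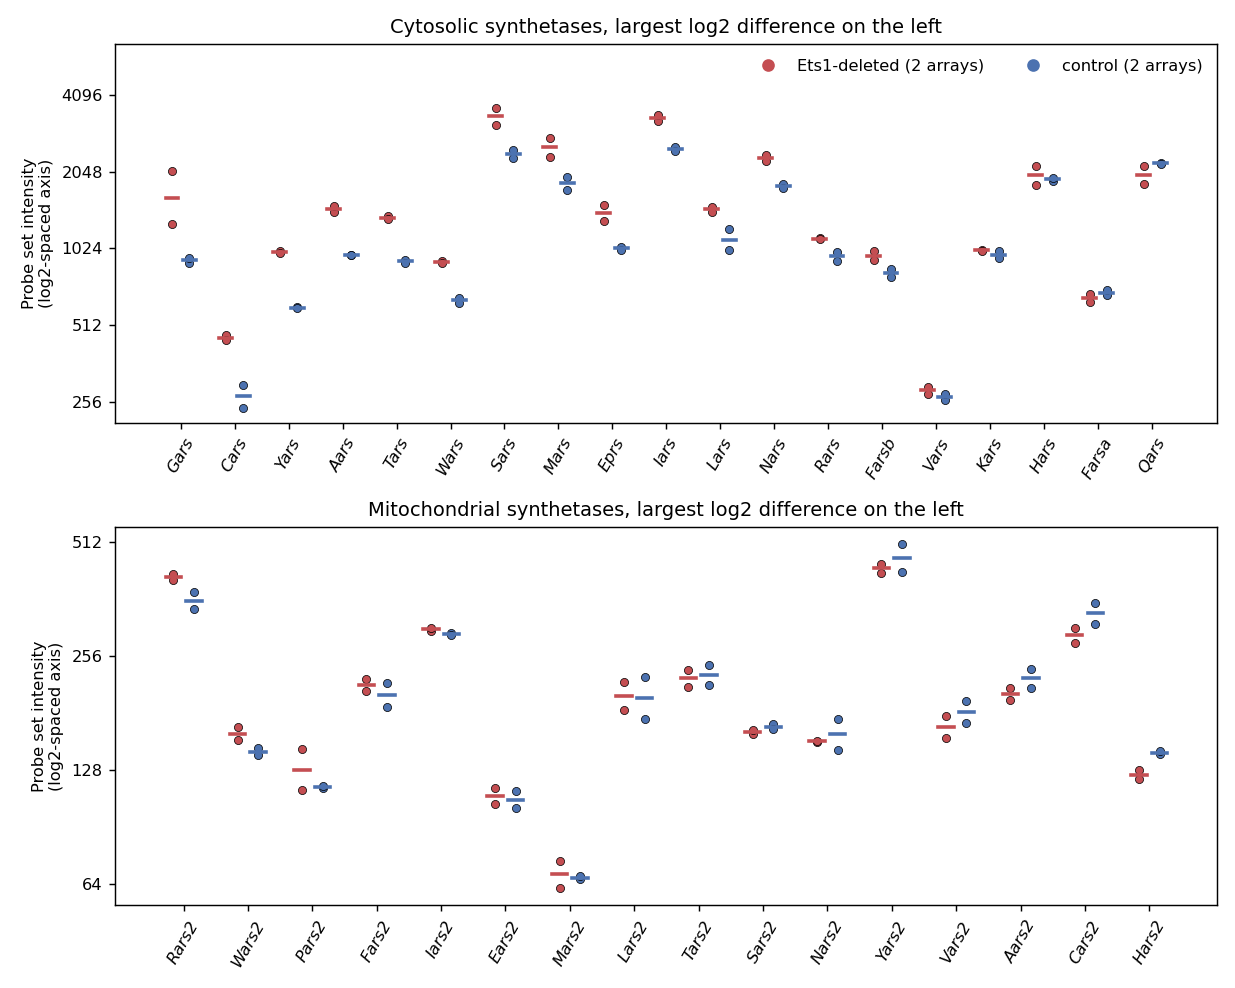
Probe set intensity (log2-spaced axis) of the 19 cytosolic and 16 mitochondrial synthetase genes on each array, with Ets1-deleted arrays in red and control arrays in blue. Bars are group means of the log2 values, and genes run from the largest to the smallest log2 difference, so that 12 cytosolic genes at the left stand clear of their controls while most mitochondrial genes overlap or lie close.

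Gars, the glycine enzyme, had the largest difference and the widest spread. It read 2054 and 1278 intensity units in the Ets1-deleted arrays, against 894 and 942 in the controls, a log2 difference of 0.82 ± 0.18 (1.77-fold, limma adjusted p = 0.00462). The groups did not overlap, but the replicates of the Ets1-deleted group lay far apart. Without Ets1-deleted 1 the difference was 0.48 (limma adjusted p = 0.017), and without Ets1-deleted 2 it was 1.16. Cars, the cysteine enzyme, read 465 and 447 in the Ets1-deleted arrays, against 242 and 298 in the controls (0.76 ± 0.12, 1.70-fold, limma adjusted p = 0.000681). The groups did not overlap.

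A second, dimmer Cars probe set, close to the dim limit of 97.4 intensity units, gave 106 and 120 in the Ets1-deleted arrays, against 118 and 114 in the controls, a log2 difference of -0.04. With the mean over both probe sets, Cars differed by 0.36 (limma adjusted p = 0.0163). Yars, the tyrosine enzyme, had the smallest SE of the 12 that rose: 999 and 978 in the Ets1-deleted arrays, against 601 and 595 in the controls (0.73 ± 0.11, 1.65-fold, limma adjusted p = 0.000332). It had the smallest p among the synthetases and ranked 764 of the 10873 genes tested.

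Aars, the alanine enzyme, read 1424 and 1502 in the Ets1-deleted arrays, against 964 and 967 in the controls (0.60 ± 0.11, limma adjusted p = 0.00146). Its second bright probe set gave 0.61. Tars, the threonine enzyme, read 1372 and 1329 in the Ets1-deleted arrays, against 918 and 899 in the controls (0.57 ± 0.11, limma adjusted p = 0.00194). In both genes the lower Ets1-deleted array stood well above the higher control. Wars, the tryptophan enzyme, which interferon gamma is also known to induce, read 909.8 and 898 in the Ets1-deleted arrays, against 656 and 625 in the controls (0.50 ± 0.11, limma adjusted p = 0.00479). All 4 Wars probe sets were higher, by 0.28 to 0.61, but the one at 0.28 did not pass (limma adjusted p = 0.106 over all probe sets). The Wars probe sets at 0.28 and 0.42 are of a type whose probes can bind other transcripts. Aars, Cars, Gars, Tars, Wars and Yars were the 6 genes that passed with any single array left out.

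Sars, the serine enzyme, read 3126 and 3641 in the Ets1-deleted arrays, against 2311 and 2483 in the controls (0.49 ± 0.12, limma adjusted p = 0.00858). Mars, the methionine enzyme, which also serves initiation, read 2347 and 2784 in the Ets1-deleted arrays, against 1735 and 1950.4 in the controls (0.47 ± 0.12, limma adjusted p = 0.0137). Eprs read 1508 and 1315 in the Ets1-deleted arrays, against 1037 and 1009 in the controls (0.46 ± 0.12, limma adjusted p = 0.0107). Its other bright probe sets gave 0.35 (limma adjusted p = 0.0383 over all probe sets) and 0.28 (limma adjusted p = 0.0866). The groups did not overlap in any of these genes, although each rested on 1 or more arrays for its call. The Sars call was lost without Ets1-deleted 2 (0.38, limma adjusted p = 0.0509), and the Eprs call without Ets1-deleted 1 (0.36, limma adjusted p = 0.0657). Mars was lost without Ets1-deleted 2 (0.35, limma adjusted p = 0.0803) or control 1 (0.39, limma adjusted p = 0.0875), and with the array floor subtracted (0.49, limma adjusted p = 0.0533).

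The 3 smallest rises were in the enzymes of the branched amino acids isoleucine and leucine and of asparagine. Iars read 3251 and 3407 in the Ets1-deleted arrays, against 2569 and 2473 in the controls (0.40 ± 0.11, limma adjusted p = 0.0171). Lars read 1491 and 1420.5 in the Ets1-deleted arrays, against 1215 and 1005 in the controls (0.40 ± 0.12, limma adjusted p = 0.0309). Nars read 2389.6 and 2252 in the Ets1-deleted arrays, against 1838 and 1762 in the controls (0.37 ± 0.11, limma adjusted p = 0.0275). Groups again did not overlap, and each of the 3 calls was lost in several settings. A second bright Nars probe set gave 0.31 (limma adjusted p = 0.0799 over all probe sets). Iars was lost without Ets1-deleted 2 (0.37), control 1 (0.43) or control 2 (0.37), at limma adjusted p between 0.0544 and 0.109. Lars was lost without Ets1-deleted 1 (0.36) or control 2 (0.26), at limma adjusted p of 0.0924 and 0.322, and with no filter (limma adjusted p = 0.0503). Nars was lost without Ets1-deleted 1 (0.32), control 1 (0.40) or control 2 (0.34), at limma adjusted p between 0.0808 and 0.165. With the array floor subtracted Iars, Lars and Nars gave limma adjusted p of 0.0603, 0.0861 and 0.0803. In each case where an array was left out, 9 of the 12 remained.

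**Figure D2:**
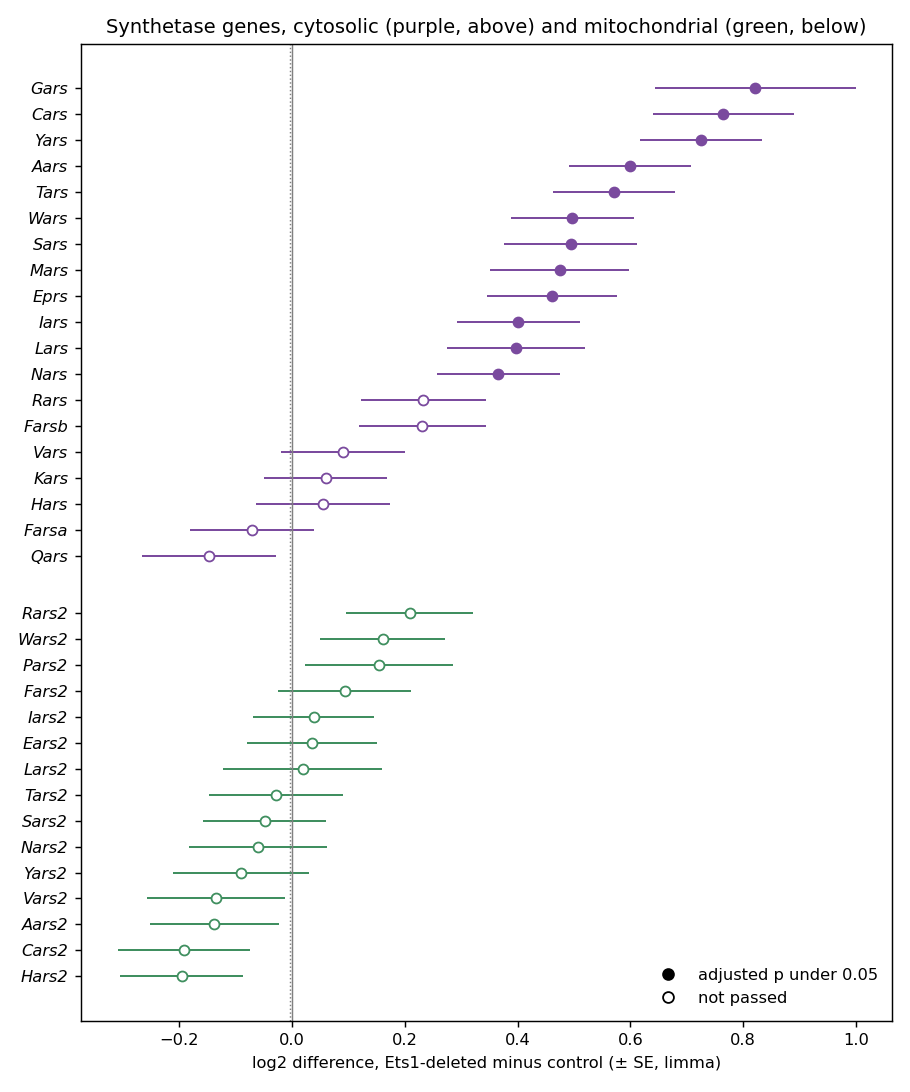
Log2 difference of each tested synthetase gene, Ets1-deleted minus control, with bars of 1 SE from limma; cytosolic genes stand above in purple and mitochondrial genes below in green. Filled points passed an adjusted p of 0.05: 12 of 19 cytosolic genes and 0 of 15 mitochondrial genes, and the dotted line is the median of all tested genes (-0.00).

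The 7 cytosolic genes that did not pass were those of arginine, phenylalanine, valine, lysine, histidine and glutamine. Rars read 1127 and 1109 in the Ets1-deleted arrays, against 993 and 911 in the controls, a log2 difference of 0.23 ± 0.11 (limma adjusted p = 0.147). Farsb read 919 and 1001 in the Ets1-deleted arrays, against 789 and 846 in the controls (0.23 ± 0.11, limma adjusted p = 0.157), and its 4 probe sets gave 0.20 to 0.29. Neither group pair overlapped. Farsa, the partner subunit of Farsb, differed by -0.07 ± 0.11 with overlapping groups. Vars differed by 0.09 ± 0.11, Kars by 0.06 ± 0.11 and Hars by 0.05 ± 0.12. Qars read 1836.5 and 2163 in the Ets1-deleted arrays, against 2221 and 2193 in the controls (-0.15 ± 0.12, limma adjusted p = 0.409). The 3 Qars probe sets over the dim limit ran from -0.15 to 0.12, and the brightest is of a type whose probes can bind other transcripts. These results do not show that the 7 genes were equal between the genotypes, since the SE leaves room for small differences.

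All 12 genes that rose are commonly described as ATF4 targets. Of the 13 cytosolic genes listed as such, 12 rose (median 0.49), and the exception was Vars (0.09 ± 0.11). Of the other 6 tested, 0 rose and 0 fell, also at an unadjusted p under 0.05 (median 0.06, range -0.15 to 0.23). The groups stood apart, Ets1-deleted higher, in 13 of these 13 genes and in 3 of these 6, against 30.9% of all tested genes. The list was drawn up with earlier results of these data known, and no test of the split was made.

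The cytosolic genes were also counted by other groupings, and of all tested genes 13.9% were called higher. By fold of the catalytic domain, 7 of 10 class I genes rose (median 0.43) and 5 of 9 class II genes (median 0.37). Eprs, which joins the glutamate and proline enzymes, was counted in class I. In the multi-synthetase complex, a large assembly of several cytosolic enzymes, 4 of 7 tested members rose (Eprs, Iars, Lars and Mars, median 0.40) while Kars, Qars and Rars did not pass. Outside the complex 8 of 12 rose (median 0.50). The scaffold proteins of the complex are Aimp1, Aimp2 and Eef1e1. Aimp2 rose by 0.37 ± 0.11 (limma adjusted p = 0.0308), with 1063 and 1180.4 in the Ets1-deleted arrays, against 829 and 902 in the controls. Aimp1 differed by 0.31 ± 0.11 (limma adjusted p = 0.065, called with averaged probe sets and with the replicate block) and Eef1e1 by 0.11 ± 0.12. The Aimp2 call was lost without Ets1-deleted 2 (0.30), control 1 (0.31) or control 2 (0.43), at limma adjusted p between 0.0519 and 0.200, and with the array floor subtracted (limma adjusted p = 0.0807).

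Mitochondrial synthetase genes, read from their brightest probe sets, stayed within -0.20 and 0.21. At the top, Rars2 read 423 and 407 in the Ets1-deleted arrays, against 378.5 and 341 in the controls (0.21 ± 0.11, limma adjusted p = 0.203). At the bottom, Hars2 read 121 and 128 in the Ets1-deleted arrays, against 141 and 144 in the controls (-0.20 ± 0.11, limma adjusted p = 0.218). Cars2 read 278 and 304 in the Ets1-deleted arrays, against 311 and 355 in the controls (-0.19 ± 0.12, limma adjusted p = 0.267). In all 3 the groups did not overlap, but none passed, and over the 15 genes the groups stood apart in 3 with Ets1-deleted higher and in 4 with Ets1-deleted lower. Those shares can be set beside 30.9% and 31.7% of all tested genes.

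The other mitochondrial genes lay closer to 0. Wars2 differed by 0.16 ± 0.11, Pars2 by 0.15 ± 0.13, Fars2 by 0.09 ± 0.12, Iars2 by 0.04 ± 0.11, Ears2 by 0.03 ± 0.12 and Lars2 by 0.02 ± 0.14. Below 0 were Tars2 (-0.03 ± 0.12), Sars2 (-0.05 ± 0.11), Nars2 (-0.06 ± 0.12), Yars2 (-0.09 ± 0.12), Vars2 (-0.13 ± 0.12) and Aars2 (-0.14 ± 0.11). Mars2 read 73.8 and 62.4 in the Ets1-deleted arrays, against 65.9 and 67 in the controls, below the dim limit. Of the second probe sets over the dim limit, those of Cars2 (-0.24), Fars2 (0.22) and Tars2 lay outside the range above, and only that of Tars2, of the type that can bind other transcripts, passed. It read 226 and 209 in the Ets1-deleted arrays, against 165 and 167 in the controls, a difference of 0.39 ± 0.11 (limma adjusted p = 0.0246 over all probe sets), while the brightest Tars2 probe set gave 236 and 212 in the Ets1-deleted arrays, against 214 and 243 in the controls.

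Mean intensities over the 4 arrays ran from 108 to 451 for the tested mitochondrial genes and from 275 to 2896 for the cytosolic ones. RMA values of dim probe sets are known to be compressed on the log scale. Among all tested genes in the mitochondrial range 14.7% were called higher and 13.3% lower, and in the cytosolic range 13.7% and 13.9%. With the 5th percentile of each array subtracted, the gap between the compartments' medians was 0.45, and 0 mitochondrial genes were called.

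Within each array, the mean log2 value of the cytosolic genes minus that of the mitochondrial genes was 2.67 and 2.70 in the Ets1-deleted arrays, against 2.30 and 2.32 in the controls. The cytosolic mean was 10.35 and 10.33 in the Ets1-deleted arrays, against 9.96 and 9.98 in the controls. The mitochondrial mean was 7.68 and 7.62 in the Ets1-deleted arrays, against 7.67 and 7.66 in the controls. The cytosolic mean was higher in both Ets1-deleted arrays, while the mitochondrial means overlapped, and the median log2 difference was 0.43 larger for cytosolic than for mitochondrial genes. With 2 arrays against 2, an exact permutation test cannot give a p below 0.333, so none is given.

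The same log2 differences were also set side by side by amino acid, which adds no new measurement. Of 14 pairs with both members tested, the cytosolic gene had the higher log2 difference in 13, with a median gap of 0.37. The widest gaps were for cysteine (Cars and Cars2, 0.96), tyrosine (Yars and Yars2, 0.82) and alanine (Aars and Aars2, 0.74). The Yars2 probe set used is of the type whose probes can bind other transcripts, and the second Yars2 probe set gave -0.02. The gap was 0.02 for arginine, where Rars and Rars2 differed by 0.23 and 0.21. The exception was Farsa with Fars2, at -0.16. These gaps were not tested pair by pair, and Farsa and Farsb share the partner Fars2.

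**Figure D3:**
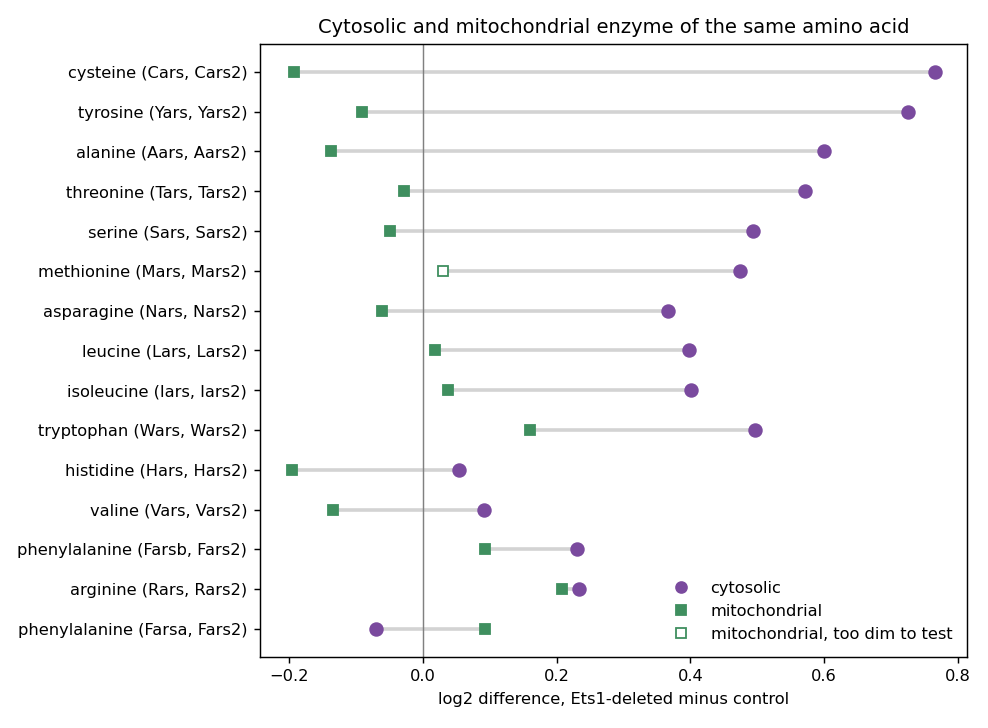
Log2 difference, Ets1-deleted minus control, of the cytosolic (purple circle) and mitochondrial (green square) gene for the same amino acid, joined by a line. The cytosolic gene lies to the right in 13 of 14 tested pairs, by up to 0.96 for cysteine, and the open square is Mars2, too dim to test.

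Genes of the same pathway were read for comparison, in lists drawn up with earlier results of these data known. Among 16 regulators of eIF2 and ATF4, 2 rose and 0 fell (median 0.07), against 13.9% and 12.8% of all tested genes. Atf4 itself read 3962 and 3222 in the Ets1-deleted arrays, against 2118 and 2115 in the controls (0.76 ± 0.12, limma adjusted p = 0.000703). Eif2b2, a subunit of the exchange factor that recharges eIF2, rose by 0.34 ± 0.11, but its call was lost with any single array left out (0.27 to 0.41, limma adjusted p between 0.0677 and 0.308), with repeated quantile normalization, with the array floor subtracted and with averaged probe sets. The GCN2 gene Eif2ak4 differed by -0.09 ± 0.11, the kinase gene Eif2ak2 by -0.32 ± 0.11 (limma adjusted p = 0.055, called with repeated quantile normalization and with the replicate block) and the exchange factor gene Eif2b4 by 0.28 ± 0.12. The GCN2 partner gene Gcn1 differed by -0.06 ± 0.12.

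Of 29 other ATF4 target genes tested, 21 rose and 2 fell (median 0.71), against 13.9% and 12.8% of all tested genes. Asns, which makes asparagine, read 2217 and 1954 in the Ets1-deleted arrays, against 1098 and 1105 in the controls (0.92 ± 0.11, limma adjusted p = 7.94e-05). The serine synthesis genes Phgdh and Psat1 rose by 0.90 and 0.74, and Psph, the last step of that pathway, differed by -0.03. The stress gene Nupr1 rose by 2.39, beside Vldlr (2.36), Slc7a3 (1.88) and Chac1 (1.88). Vldlr read 63.3 and 62.7 in the controls, under the dim limit, so it was tested because of the Ets1-deleted arrays. The same held for Cth (84.8 and 73.0 in the controls) and Slc7a11 (73 and 62.4), which are also among those that rose. Stc2, a secreted glycoprotein gene, and the glutamine transporter gene Slc1a5 fell by 1.25 and 0.85 on the log2 scale, and Ddit3, a death-promoting ATF4 target, differed by 0.05. The members of this list did not all move one way, with 18 to 20 of them higher when single arrays were left out, and the 12 synthetase rises (0.37 to 0.82) were smaller than many of them.

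In 16 genes of transfer RNA handling, 2 rose and 1 fell (median 0.10), against 13.9% and 12.8% of all tested genes. Dtd1 encodes an enzyme that removes D-amino acids from transfer RNA, and Dtd2 is a related gene. Dtd1 fell by 0.74 on the log2 scale (380 and 328 in the Ets1-deleted arrays, against 566 and 613 in the controls, limma adjusted p = 0.000597), and the dim Dtd2 rose by 0.52 (127 and 115 in the Ets1-deleted arrays, against 82.6 and 86.2 in the controls, limma adjusted p = 0.00434). The control values of Dtd2 lay under the dim limit, so it was tested because of the Ets1-deleted arrays. Xpot, which exports transfer RNA from the nucleus, rose by 0.39 ± 0.12, a call lost without Ets1-deleted 2 (0.28), control 1 (0.38) or control 2 (0.40), at limma adjusted p between 0.0757 and 0.154, with the array floor subtracted (limma adjusted p = 0.0781) and with averaged probe sets (0.26, limma adjusted p = 0.0529). Sepsecs, for selenocysteine, differed by 0.35 ± 0.13 (limma adjusted p = 0.0597), and passed with median centring, with averaged probe sets, with the replicate block and without Ets1-deleted 1 (0.51).

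Of 15 genes of mitochondrial transfer RNA and translation, 1 rose and 1 fell (median 0.06), against 13.9% and 12.8% of all tested genes. These were the elongation factor gene Tufm (0.40 ± 0.11, limma adjusted p = 0.0162) and the release factor gene Mtrf1l (-0.38 ± 0.11, limma adjusted p = 0.0217). Gatb and Gatc, subunits of the enzyme that makes mitochondrial glutaminyl-tRNA, differed by 0.38 ± 0.13 (limma adjusted p = 0.0553) and -0.17 ± 0.11. Gatb passed with median centring, with the replicate block, without Ets1-deleted 1 (0.45) and without control 2 (0.55). Tufm was lost without control 1 (0.38) or control 2 (0.42), and Mtrf1l without Ets1-deleted 1 (-0.33), control 1 (-0.38) or control 2 (-0.39) and with the array floor subtracted (limma adjusted p = 0.0556), all at limma adjusted p up to 0.103. Of 5 cytosolic elongation factor genes, 0 were called in limma (1 at an unadjusted p under 0.05, and 1 called with the mean over probe sets). Eef1a1, which brings charged transfer RNA to the ribosome, differed by 0.10 ± 0.12, Eef2 by -0.16 ± 0.12, Eef1b2 by -0.10 ± 0.12 and Eif5a by 0.27 ± 0.11.

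**Figure D4:**
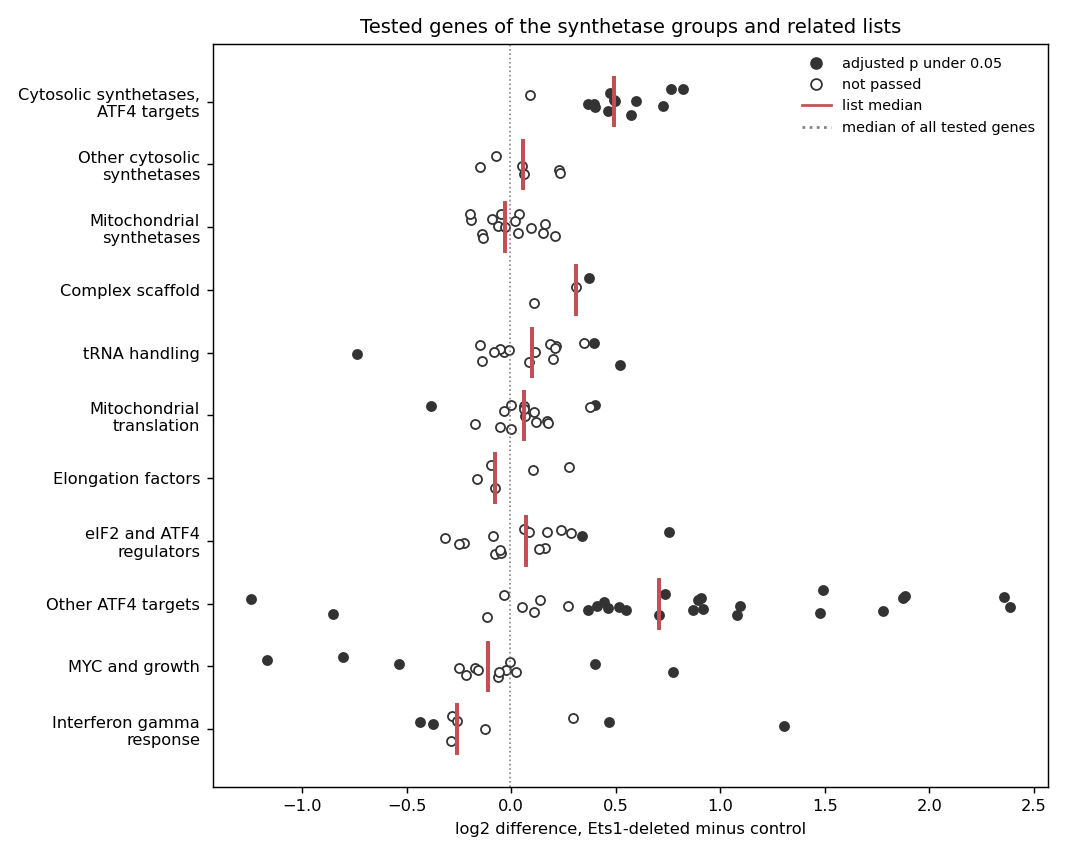
Log2 difference, Ets1-deleted minus control, of each tested gene in the synthetase groups and the related lists; filled points passed an adjusted p of 0.05, red bars are list medians and the dotted line is the median of all tested genes. Cytosolic synthetases listed as ATF4 targets have a median of 0.49 (range 0.09 to 0.82), the other cytosolic ones 0.06 (-0.15 to 0.23) and the mitochondrial ones -0.03, while other ATF4 targets spread from -1.25 to 2.39.

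The arrays themselves bear on these results in a few ways. Ets1 was lower with each of its 4 probe sets (-2.78 to -3.51), with its brightest at 138 and 180.2 in the Ets1-deleted arrays, against 1272 and 1231 in the controls. All 10 ILC2 markers with a probe set passed the dim limit. Gata3 and Il7r differed by 0.08 and 0.05, Icos, the marker of the sort, fell by 0.38 on the log2 scale, Klrg1 fell by 1.60 on the log2 scale, and Rora, Il2ra, Il17rb, Il5, Il13 and Thy1 rose by 0.69 to 1.91. Markers of other cells moved in the same arrays, and their part in the synthetase result was not tested. For comparison, 13.9% of all tested genes were called higher and 12.8% lower. Of 10 tested myeloid markers 9 rose, and the summed intensity of the list was 5190.5 to 5384 in the Ets1-deleted arrays, against 2758 to 3033 in the controls. The myeloid markers Itgam and Elane were too dim to test, and their groups overlapped. Of 8 tested mast cell and basophil markers 6 rose (sum 4071 to 4245 in the Ets1-deleted arrays, against 2506 to 2516 in the controls), with Fcer1a and Tpsab1 under the dim limit on all arrays. Cpa3, a mast cell protease gene, rose by 4.07, with 1497 and 1261 in the Ets1-deleted arrays, against 85.9 and 78.3 in the controls. These control values lay under the dim limit, so Cpa3 was tested because of the Ets1-deleted arrays. Mcpt8, the brightest of the list in the controls, read 1097 and 1193 in the Ets1-deleted arrays, against 1337 and 1385 in the controls. It differed by -0.25 ± 0.11 and did not pass (limma adjusted p = 0.121). Of 6 T cell markers 4 rose and 1 fell (sum 6317 to 6643 in the Ets1-deleted arrays, against 3501 to 3655 in the controls), with Cd4, Cd5 and Cd8a under the limit. Single T cell markers moved more than the sum: Cd3e rose by 3.28, Cd247 by 3.11 and Cd3d by 2.58, while Cd3g, the brightest, rose by 0.50 and Zap70 fell by 1.13 on the log2 scale. Cd3e read 102.8 and 81.6 in the controls, about the dim limit, so its place in the test rested on the Ets1-deleted arrays. Of 8 stromal markers 0 rose and 3 fell (sum 2375 to 2523 in the Ets1-deleted arrays, against 2849 to 3081 in the controls), with Dcn, Lum and Pdgfra under the limit. Of 2 tested B cell markers 0 rose and 1 fell (Cd79b), and the sums were 479 to 488 in the Ets1-deleted arrays, against 762 to 774 in the controls, and Cd79a, Ebf1, Ms4a1 and Pax5 were under the limit. Cd79b read 91.6 and 83.5 in the Ets1-deleted arrays, under the limit, and was tested because of the controls (381 and 380). ILC2 markers summed to 26784 to 29220.2 in the Ets1-deleted arrays, against 21413 to 23632 in the controls, with 6 of 10 higher and 2 lower.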

How the data were processed

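RNA of sorted cells was amplified and labelled with biotin, per the labels' protocols. The deposited intensity values are RMA summaries per probe set made by the authors, per the submitters' processing notes, and the sources used here give neither their software version nor their scaling. They were read as linear, because they reach 23291, and turned into log2. No normalization was added, since array medians lay between 96.5 and 97.7 intensity units.

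Of 45101 probe sets, 34958 had 1 gene symbol in the platform annotation, 932 had several and 9211 were not listed. Each gene was read from its brightest probe set and tested where the mean log2 value reached the median of all probe sets (97.4 intensity units). The test was lmFit and eBayes of limma 3.58.1 in R 4.3.3, two-sided, on 10873 genes, with Benjamini-Hochberg adjustment over all of them, a threshold of 0.05, 2 residual and 9.75 prior degrees of freedom. The code was tested on simulated data. The number of arrays limits the precision.

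Lists were described by counts and medians only. All synthetases, Ets1, and the 4 members of smallest p in each related list are named; other list members were named after their values were seen. The members and lists were chosen with earlier results of these data known. Start-site windows are from RefSeq (GRCm38.p6). Alternatives changed normalization, filter, probe set choice, background, variance model and replicate block, or left out each array.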

Additional observations from a re-analysis of the deposited data

How the results depend on the processing

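Of the 15 alternatives tried, 14 kept between 8 and 12 cytosolic synthetase genes higher, with 0 lower and 0 mitochondrial genes called in either direction. Leaving out single arrays gave 9 cytosolic genes in each case, and 2238 to 2736 genes in all. Without moderation (ordinary variances on 2 residual degrees of freedom), 0 cytosolic synthetases and 13 of all genes passed, so the calls rest on variance shared across genes; the smallest adjusted p among the synthetases was then 0.0691 (Yars). The cytosolic median (0.40) was 0.37 after repeated quantile normalization and 0.36 with the mean over probe sets. With single arrays left out it ran from 0.36 to 0.43, the mitochondrial median from -0.037 to 0.027, and the gap between them from 0.36 to 0.44. That gap was 0.41 with no filter and with the filter at the 70th percentile, 0.45 after subtraction of the array floor and 0.36 for averaged probe sets. The causes of these shifts were not tested. The mitochondrial median, near 0, thus changed sign, as did Myc, Pstk, Gfm2 and Tfb1m, whose differences were within 0.01 of 0. Larger differences turned too, such as Hars (0.05) and Pars2 (0.15) without Ets1-deleted 1. Ets1-deleted 2 read 1822 for Hars, against 1875 and 1940 in the controls. For Pars2 it read 113.3, against 114.6 and 116.4. Mycn, in the list of growth genes, turned direction to a call, at 0.75 with the mean over probe sets against -0.25 with its brightest. The replicate numbers are not said to mark a shared litter or day, and deviations of the replicates numbered 1 correlated at 0.17 over genes. With the replicate block, 3252 genes and the same 12 cytosolic synthetases were called, and no synthetase call changed. Dim probe sets limit what can be seen of the mitochondrial genes.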

Other observations

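Of 14 MYC and growth genes tested, 2 rose and 3 fell, against 13.9% and 12.8% of all tested genes, with a median of -0.11. Myc read 1912 and 1549.9 in the Ets1-deleted arrays, against 1993 and 1500.1 in the controls (-0.01 ± 0.15). The MYC antagonist genes Mxd4 and Mxd1 fell by 1.17 and 0.80 on the log2 scale, Cad, which starts pyrimidine synthesis, fell by 0.54, and Odc1, which starts polyamine synthesis, rose by 0.78 (limma adjusted p at or below 0.00551). Max, the shared partner of MYC and the antagonists, rose by 0.40 (limma adjusted p = 0.0327), a call lost without Ets1-deleted 1 (0.25) or control 2 (0.36), with no filter (limma adjusted p = 0.0567) and with the array floor subtracted (limma adjusted p = 0.0747). The nucleolar genes Ncl, Nop56, Nop58 and Fbl did not pass, at -0.03, -0.17, -0.16 and -0.06.

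Wars is also known as an interferon gamma target. Of 9 other such genes tested, 2 rose and 2 fell, against 13.9% and 12.8% of all tested genes, with a median of -0.26. The GTPase genes Iigp1 and Igtp rose by 1.31 and 0.47, and the GTPase gene Gbp2 and the peptide transporter gene Tap1 fell by 0.44 and 0.37 on the log2 scale. Iigp1 read 76.8 and 67.3 in the controls, under the dim limit, and was tested because of the Ets1-deleted arrays. The Igtp call was lost without Ets1-deleted 2 (0.35) or control 1 (0.43), the Gbp2 call without control 1 (-0.36) and with averaged probe sets (-0.31, limma adjusted p = 0.0523), and the Tap1 call without Ets1-deleted 1 (-0.27), control 1 (-0.41) or control 2 (-0.34), with the array floor subtracted (limma adjusted p = 0.0904) and with averaged probe sets (-0.17, limma adjusted p = 0.234). Irf1, an interferon-induced transcription factor gene, differed by -0.28 ± 0.11 (limma adjusted p = 0.0875), and passed with averaged probe sets (limma adjusted p = 0.0488).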
